A study of Tegula funebralis with 16 samples.

Results

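The transcripts described here are 46 contigs named for proteins of the cytosolic ribosome in the intertidal snail Chlorostoma (Tegula) funebralis, among 15903 contigs of a table of normalised read counts from RNA sequencing. A contig is an assembled transcript or a piece of one. The 46 were taken by name: every contig whose name holds the words ribosomal protein was kept, apart from mitochondrial ribosomal proteins, kinases, transferases and ubiquitin fusions. All 46 that matched had a mean of at least 10 normalised reads and were tested among 14444 contigs above that mean. They comprise 22 contigs of the small (40S) subunit and 24 of the large (60S) subunit. Among them, 43 numbered proteins are represented, the stalk protein P2 by 2 contigs, and 2 contigs carry no number, one called 40S ribosomal protein (SR_contig_17969) and one called ribosomal protein l (SR_contig_1508).

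Whole snails came from 4 Californian shores, Slide Ranch and Pigeon Point in the north and Aliso Beach and La Jolla in the south. Control snails spent 5.5 hours in air at 15 °C. Heated snails spent the same 5.5 hours in air that was warmed from 15 °C in 3 °C steps to 34 °C and then held there for 2 hours and 20 minutes. Each shore and treatment has 2 libraries, which makes 8 groups and 16 libraries, and the question is how heat changes transcripts in northern and southern snails. RNA was extracted from whole animals one by one, and whether a library stands for a single animal is not stated. A p-value here therefore reflects how far libraries of a group lie apart, which may be technical. It does not measure how far shores of a region lie apart. With 2 shores a region, a regional difference cannot be told apart from differences between single shores. In whole animals, a change in the amount of a tissue and a change within its cells cannot be told apart.

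Ribosomes make every protein of the cell. The small subunit reads the messenger RNA, the large subunit joins the amino acids, and the stalk formed by P0 with the acidic proteins calls in the elongation factors. In most animals the messengers for ribosomal proteins share a control through the TOR pathway and are held back from translation under stress, and heat is known to slow protein synthesis through kinases that phosphorylate the initiation factor eIF2. No contig matched P1, L10, L11, L22, the scaffold RACK1 or a ubiquitin fusion.

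Between 17594009 and 26103215 reads were recovered per library. At Pigeon Point and at La Jolla, library 1 of both treatments was unlike the rest. In these 4 libraries SR_contig_83, which carries the name senescence-associated protein, took 16.6% to 39.2% of the reads, against 1.58% to 6.80% in the other 12. Each result is therefore given for all 16 libraries and for the other 12, and the choice of these 4 libraries was known from an earlier analysis of the same data.

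Ribosomal protein contigs took a steady share of the reads in the other 12 libraries. In the 6 control libraries among them the share was 5.30% at the lowest, 5.67% at the median and 6.30% at the highest, and in the 6 heated ones it was 5.19%, 5.75% and 6.07%. The treatments overlapped almost entirely. In the 4 libraries rich in SR_contig_83 the share was 7.93% in Pigeon Point control 1, 7.26% in Pigeon Point heat 1, 8.40% in La Jolla control 1 and 5.78% in La Jolla heat 1. With SR_contig_83 left out of the total, these shares became 9.51%, 8.78%, 10.14% and 9.51%, all above the 5.40% to 6.41% of the other 12.

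**Figure D1:**
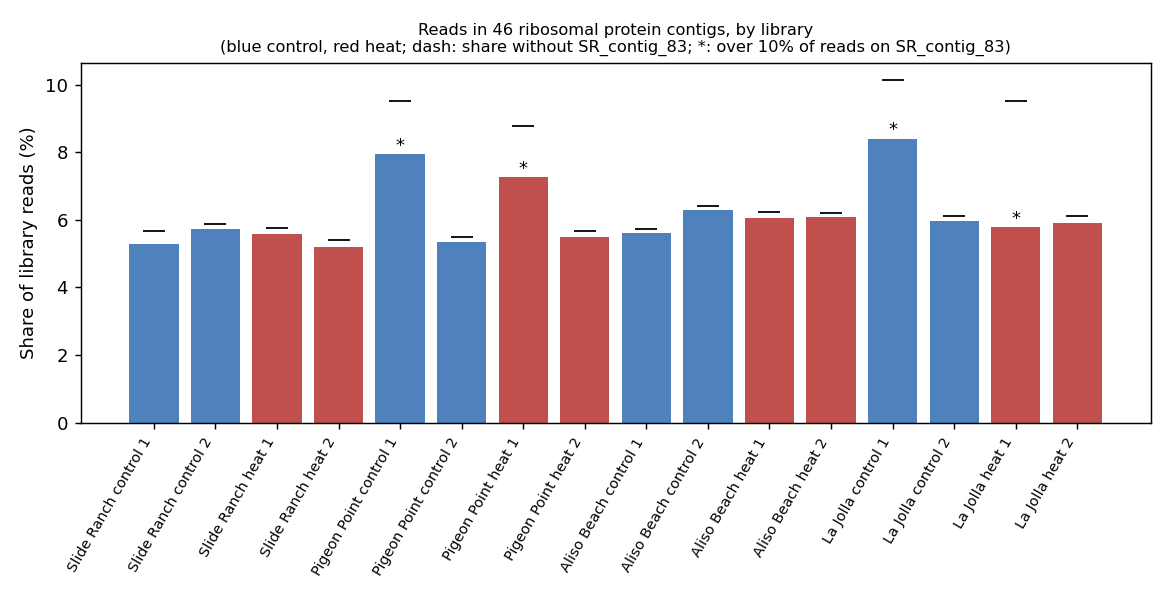
Share of each library's reads that fell on the 46 ribosomal protein contigs, in percent (bars), with the share after SR_contig_83 is left out of the total (dashes). The 12 bars without an asterisk lie between 5.19% and 6.30% in both treatments, and the 4 dashes above an asterisk lie between 8.78% and 10.14%.

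The contigs moved partly together in the other 12 libraries, and whether other contigs of like level did so was not worked out. Their mean normalised counts ran from 127 to 76734, with 39 of them at 11506 or more and 7 at 3166 or less, but contig lengths are not given, so these means do not rank the proteins. Over the 12 libraries the SD of log2(normalised count + 1) had a median of 0.27 over the 46 contigs, and after each library's median over the contigs was subtracted it had a median of 0.14. L12, at the base of the stalk, tracked that library median most closely, with an SD of 0.06. S26, which lines the channel where the messenger leaves the small subunit, had an SD of 1.75, the unnumbered 40S contig 0.68, S7 0.49 and S6 0.41. Over all 16 libraries the SD after centring had a median of 0.45, with L40a (0.18), L23 (0.18) and S2 (0.19) at the low end and S26 (1.71), S4 (1.64) and S7 (1.08) at the high end.

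**Figure D2:**
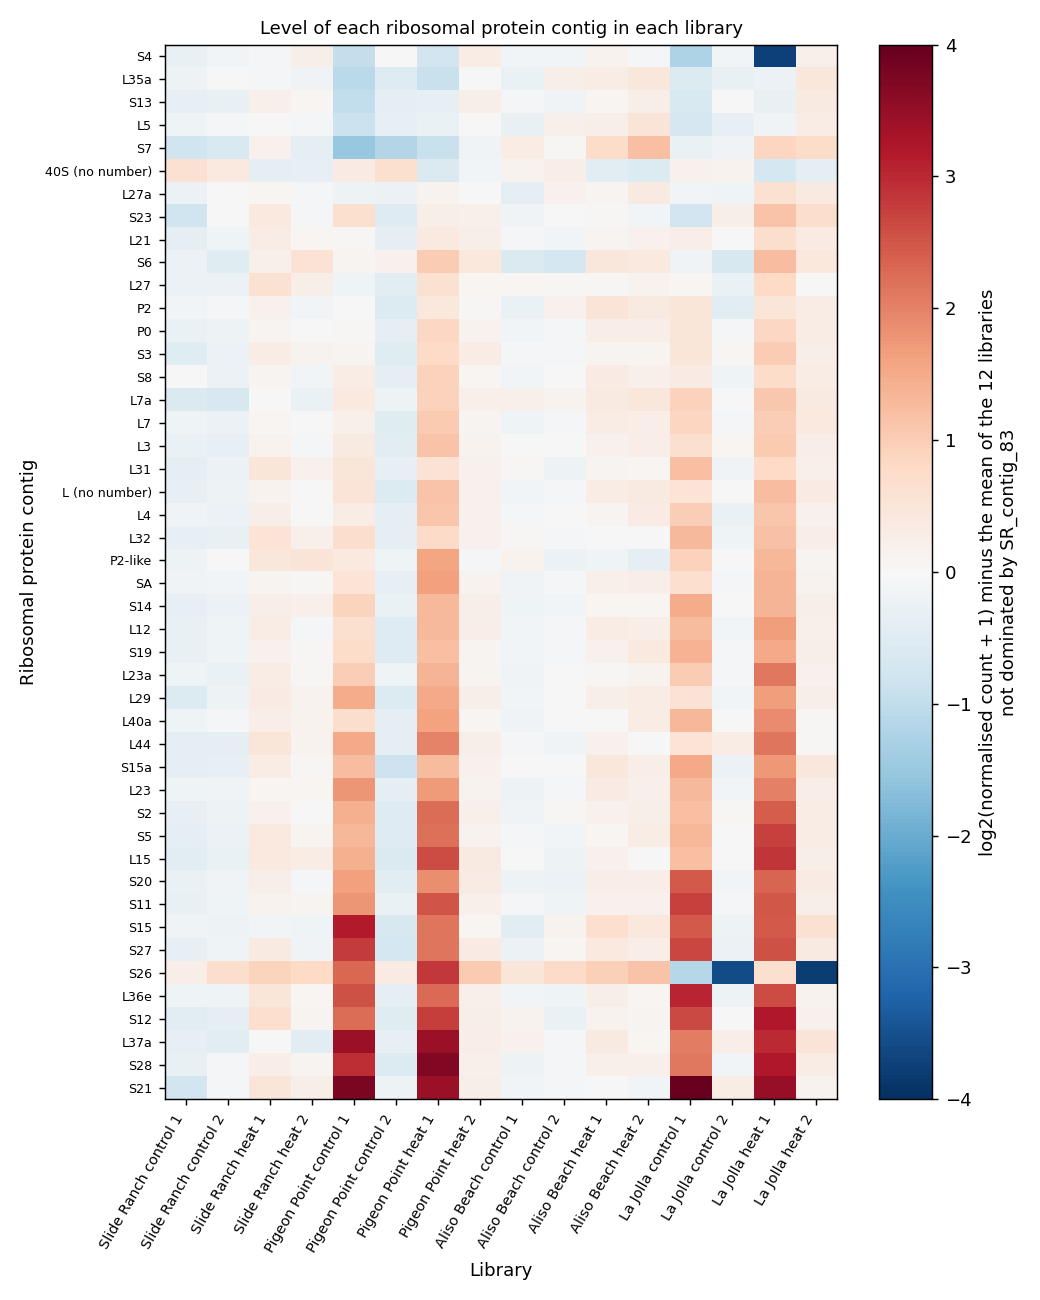
Level of each of the 46 contigs (y axis) in each library (x axis) as log2(normalised count + 1) minus the contig's mean over the 12 libraries not dominated by SR_contig_83, with colours that end at 4 above and 4 below. The 4 columns rich in SR_contig_83 carry most of the red, from S21 at the bottom with a mean of 3.58 over its partner library to S4 at the top with -1.77, and S26 is blue in the second libraries of La Jolla.

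In the 4 libraries rich in SR_contig_83, ribosomal proteins were not raised by a common amount. Set against the second library of the same group, the 46 contigs had a median log2 difference of 1.09, where all tested contigs had -0.03. By pair the median was 1.09 at Pigeon Point control, 1.04 at Pigeon Point heat, 1.01 at La Jolla control and 1.17 at La Jolla heat. At Slide Ranch and Aliso Beach the same first-minus-second medians lay between -0.10 and 0.18. These differences between 2 libraries of a group are descriptions and were not tested.

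Small subunit proteins had the larger median difference, 1.41 against 0.91 for the large subunit, but were less uniform. Of the 22 small subunit contigs, 16 were above the partner library in all 4 pairs, against 22 of the 24 large subunit contigs. A mean difference over 2 was seen in 11 contigs, 8 of them of the small subunit. S21 had 118602 normalised reads in Pigeon Point control 1 and 7578 in control 2, 95247 and 10148 in the heated pair, 146732 and 10734 in the La Jolla control pair, and 97674 and 9667 in the heated pair there. The first library of each pair was thus far above its partner, by a mean log2 difference of 3.58. S28, another small protein beside the messenger's exit, followed with 3.03, then the zinc-binding L37a with 2.81, S12 with 2.73, L36e with 2.69, S26 with 2.65, the zinc-finger protein S27 with 2.61 and S15 with 2.59.

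Other contigs barely differed in the same libraries, and 4 were lower in all of them. L27a had a mean difference of 0.12, S23, the counterpart of a bacterial protein at the decoding centre, 0.15, and L21 0.32. L5, which carries the 5S ribosomal RNA into the large subunit, was lower in every pair, for example 39128 in Pigeon Point control 1 and 57265 in control 2, with a mean difference of -0.40. S13 and L35a were lower in all 4 pairs with -0.61 each. S4 had 77.0 and 148 in the Pigeon Point control pair and 10.3 and 172 in the La Jolla heated pair, with a mean difference of -1.77. In all, 38 contigs were higher in each of the 4 pairs. The shares of all tested contigs that were higher in each pair, lower in each pair or over a mean difference of 2 were not counted. How unusual the counts of ribosomal proteins are in these libraries is therefore not known.

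**Figure D3:**
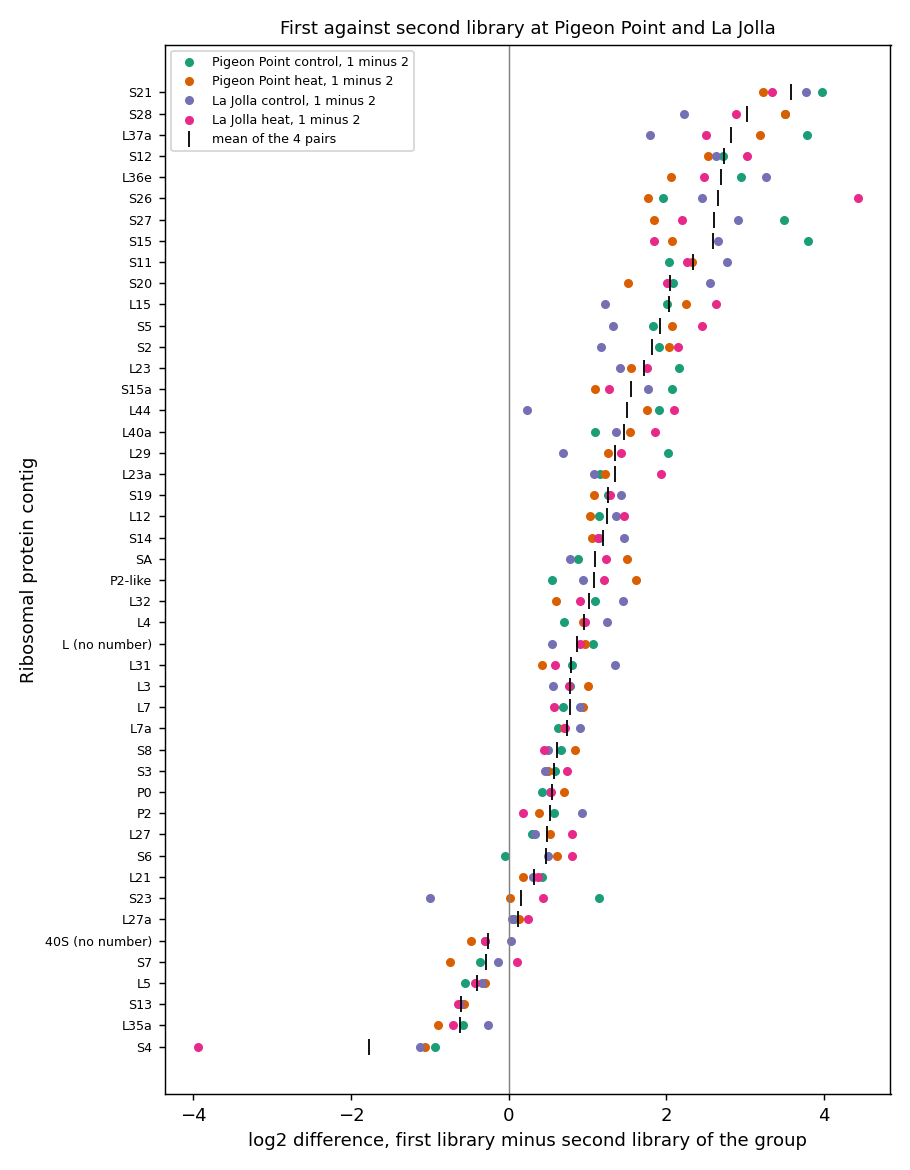
Difference in log2(normalised count + 1) between the first and the second library of a group at Pigeon Point and La Jolla (x axis) for each of the 46 contigs (y axis), with a point per group and a bar at the mean. The bars run from 3.58 for S21 to -1.77 for S4, and 38 contigs have all 4 points to the right of 0.

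Shares of tissue markers were taken of all reads, SR_contig_83 included, and shares without it were not worked out. A large share of SR_contig_83 lowers every other share, so lower values do not by themselves show a different tissue make-up. The digestive gland and the ovary and egg ranges overlapped between the other 12 libraries and the 4 libraries rich in SR_contig_83. Muscle markers (40 contigs) took 0.444% to 0.827% of the reads there, against 1.23% to 1.72% in the other 12. Testis and sperm markers (43 contigs) took 0.0397% to 0.0912% against 0.114% to 0.192%, digestive gland markers (103 contigs) 1.89% to 2.84% against 2.77% to 3.35%, and ovary and egg markers (26 contigs) 1.20% to 1.55% against 1.43% to 3.05%. Markers of ingested plants or algae (6 contigs) took 0.00520% to 0.00959% against 0.0126% to 0.0182%. The lists were taken by words in the contig name, such as sperm, cathepsin or lipase, and whether each contig is particular to its tissue was not checked. No marker contig of any list was at 0 in a library, and the part of tissue make-up in the ribosomal protein differences was not tested.

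Over all 16 libraries, S6 and S7 rose with heat, the unnumbered 40S contig fell, and the other 43 of the 46 did not pass. The threshold was a Benjamini-Hochberg adjusted p under 0.05 in limma, past which 2.08% of all tested contigs were called higher and 2.16% lower. The median log2 difference of heat minus control over the 4 shores was 0.38, where that of all tested contigs was 0.0007. Of the 46, 44 were above 0, and 13 had an unadjusted p under 0.05. How many of all tested contigs had an unadjusted p under 0.05 was not counted, here or in the contrasts below. The standard errors ran from 0.12 to 0.76, and the largest belonged to S21. edgeR called 2 higher and 1 lower, against 1.93% and 2.4% of all tested contigs, and DESeq2 6 and 1, against 4.66% and 4.43%.

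Without the 4 libraries rich in SR_contig_83, 36 of the 46 rose, 1 fell and 9 did not pass with the deposited scaling, while 3 rose and 1 fell with the libraries scaled to total reads without SR_contig_83. The background of the first count was 10.6% of all tested contigs called higher and 8.22% lower in limma. With the deposited scaling the rises were small, with log2 differences between 0.28 and 0.83, standard errors of 0.07 to 0.15 and a median over all 46 of 0.41. In the small subunit 17 of 22 rose, with a subunit median of 0.42, and in the large subunit 19 of 24, with a subunit median of 0.38. Pigeon Point and La Jolla then have 1 library per treatment. All standard errors and p-values in the 12 libraries thus come from the spread at Slide Ranch and Aliso Beach. The median over the contigs was 0.36 for Slide Ranch, 0.60 for Pigeon Point, 0.28 for Aliso Beach and 0.33 for La Jolla. At every shore 40 contigs were above 0, a count not made for all tested contigs. Heated and control values did not overlap in 22 contigs, all 6 heated libraries being higher, where 3.2% of all tested contigs did so, and in 1 contig, the unnumbered 40S contig, all 6 were lower, as in 3.3% of all tested contigs. Without Pigeon Point, which leaves 10 libraries, the median over the 46 was 0.34. Fewer of the 46 then rose, and fewer of all tested contigs were called as well.

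The deposited scaling holds the typical contig level between treatments, so that the median of all tested contigs was 0.02 in the 12 libraries. Scaled instead to total reads without SR_contig_83, the median of all tested contigs was -0.36 and that of the ribosomal proteins 0.03, with 27 of the 46 above 0. Only S6, S7 and S15a then rose and the unnumbered 40S contig fell, where 2.11% of all tested contigs were called higher and 44.6% lower. Over 16 libraries this scaling gave a ribosomal protein median of -0.01, with S6 rising and the unnumbered 40S contig falling, where 1.15% and 8.68% of all tested contigs were called. In the 12 libraries 45 of the 46 were above the median of all tested contigs. This count was the same under either scaling, but rescaling moves all contigs of a library almost alike. It could thus hardly change, and the second scaling adds no separate evidence. Set against the typical contig, most ribosomal proteins were thus higher in heated snails of the 12 libraries, while their share of all reads overlapped between treatments.

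**Figure D4:**
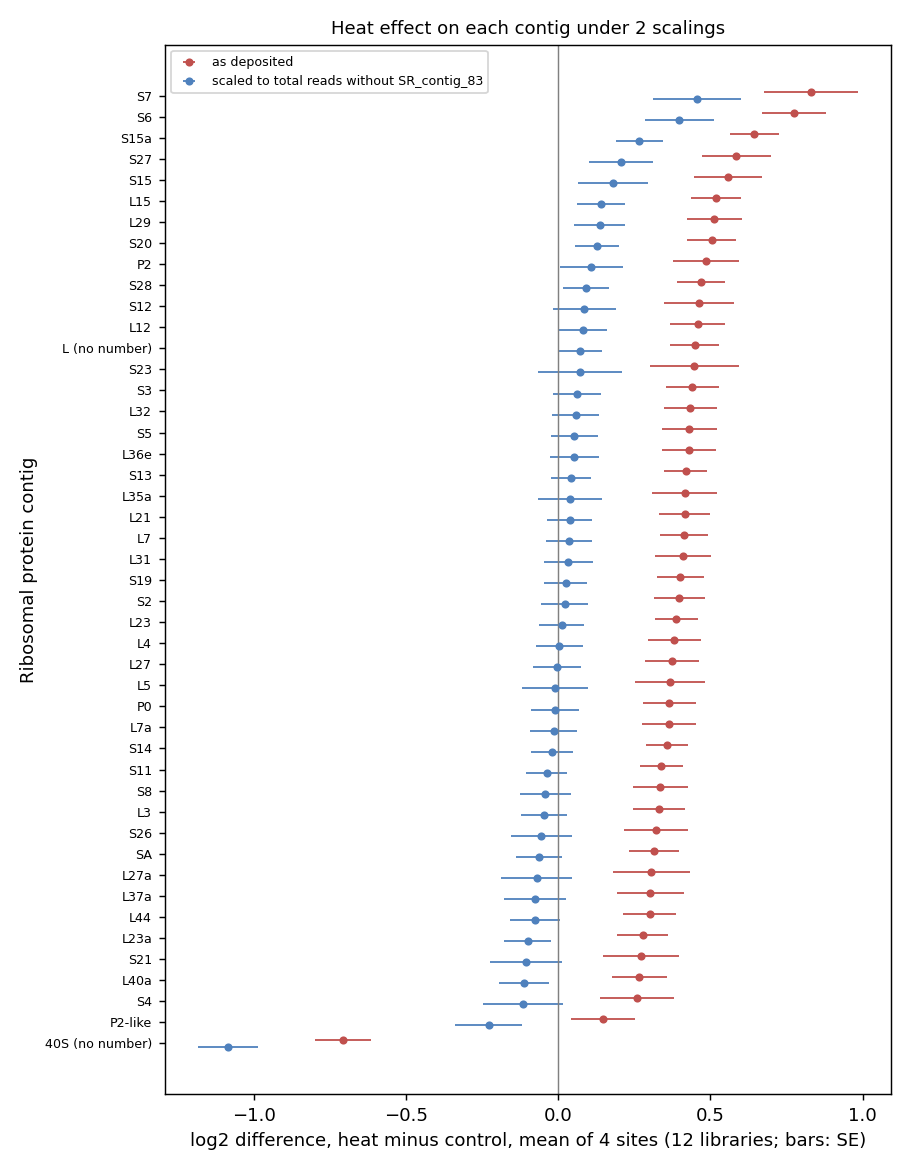
Heat minus control on the log2(normalised count + 1) scale, averaged over the 4 shores in the 12 libraries not dominated by SR_contig_83 (x axis, points with standard errors), for each of the 46 contigs (y axis). With the deposited scaling 45 points lie right of 0 around a median of 0.41, and with scaling to total reads without SR_contig_83 the same contigs sit around 0.03.

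Tissue markers were counted in the same contrast, to be read against the 10.6% of all tested contigs called higher and 8.22% lower. With the deposited scaling, in the 12 libraries, the ovary and egg list had 24 of its 26 contigs called higher in limma, with a median log2 difference of 0.46, close to that of the ribosomal proteins, and its summed share of reads was 1.47% to 2.78% in controls and 1.43% to 3.05% in heated libraries. The muscle list had 5 of 37 tested contigs higher and 1 lower with a median of 0.06, and its share was 1.31% to 1.72% in controls and 1.23% to 1.54% in heated libraries. The testis and sperm list had 1 of 43 higher and 1 lower with a median of -0.05, and its share was 0.148% to 0.192% in controls and 0.114% to 0.161% in heated libraries. The digestive gland list had 23 of 102 higher and 5 lower with a median of 0.22, with shares of 3.02% to 3.35% and 2.77% to 3.15%. The list of ingested plants or algae had 1 of 6 higher and 1 lower with a median of -0.01, with shares of 0.0156% to 0.0182% and 0.0126% to 0.0138%. Scaled to total reads without SR_contig_83, with 2.11% of all tested contigs called higher and 44.6% lower, the ovary and egg list had 1 contig higher and none lower, and the testis and sperm list 27 lower, the muscle list 15 lower, the digestive gland list 1 higher and 30 lower and the ingested plants or algae list 2 lower. The part of these markers in the ribosomal protein rises was not tested.

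The values of single proteins that follow are from the 12 libraries with the deposited scaling, and of these proteins S15a was the one that also rose after scaling to total reads without SR_contig_83. Their standard errors rest on the spread at Slide Ranch and Aliso Beach alone. P0, the anchor of the stalk, had 52210 normalised reads at the lowest, 61102 at the median and 65944 at the highest among the 6 controls, and 66454, 77774 and 82965 among the 6 heated libraries. The groups did not overlap, and the log2 difference was 0.37 ± 0.09 (SE, limma adjusted p = 0.021). The main P2 contig (SR_contig_144_C3.1) ran from 30910 to 50483 in controls and from 42093 to 64258 under heat, so the ranges overlapped, with a log2 difference of 0.49 ± 0.11 (limma adjusted p = 0.015). A P2-like contig (SR_contig_15268) had only 394 to 515 and 351 to 671, and its difference of 0.15 ± 0.11 did not pass (limma adjusted p = 0.36). L12, at the base of the stalk, had 14178 to 19207 in controls and 19618 to 25219 under heat without overlap, a log2 difference of 0.46 ± 0.09.

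Further large subunit proteins had differences of similar size. L15 went from a control median of 12196 (9685 to 14386) to a heated median of 17292 (14605 to 19048), and its log2 difference of 0.52 ± 0.08 was the highest of the 60S contigs in the 12 libraries. L29, which yeast can grow without, went from 9376 (7089 to 10595) to 12335 (11400 to 13041), a log2 difference of 0.51 ± 0.09. Neither contig overlapped between treatments. L5 went from 60919 (56662 to 81473) to 78424 (68254 to 100878) with overlap and just missed the threshold at 0.37 ± 0.11 (limma adjusted p = 0.054). L27a, L37a, L40a and the P2-like contig were the other 60S contigs that did not pass, with log2 differences of 0.15 to 0.31.

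In the small subunit, S15a, the counterpart of bacterial S8, rose from a control median of 10215 (7049 to 12738) to 15305 (12872 to 17158) without overlap, a log2 difference of 0.64 ± 0.08 (limma adjusted p = 0.0009). Over all 16 libraries its difference was 0.46 ± 0.35 and did not pass. S20, which human cells tag with ubiquitin when ribosomes stall, rose from 10814 (9285 to 11682) to 15272 (12328 to 15848), by 0.50 ± 0.08 without overlap. S28 rose from 3565 (2696 to 3858) to 4584 (4249 to 4925), by 0.47 ± 0.08, again without overlap. S27 rose by 0.58 ± 0.11 and S15, whose tail reaches the decoding site in human ribosomes, by 0.56 ± 0.11, each with some overlap between treatments.

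Proteins with well-known roles beyond this order fell in the same range. S3, at the channel where the messenger enters, rose from 32634 (25498 to 36920) to 41468 (38858 to 44138) without overlap, by 0.44 ± 0.09. S19, altered in many human cases of Diamond-Blackfan anaemia, rose from 9974 (7694 to 10740) to 12474 (11410 to 14284), by 0.40 ± 0.08 without overlap. SA, known in mammals also as a laminin receptor, rose from 49673 (42901 to 52123) to 60242 (56138 to 64722), by 0.31 ± 0.08 without overlap. In the small subunit S4, S21, S23 and S26 did not pass, with log2 differences of 0.26 to 0.45. Over all 16 libraries, as with S15a, none of the contigs of this and the 3 preceding paragraphs passed.

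The 3 contigs called over 16 libraries all belonged to the 7 with low counts. S6 is the small subunit protein that S6 kinase phosphorylates downstream of TOR. Its contig (SR_contig_2527_C3.1) had 416 and 347 normalised reads in the Slide Ranch controls and 553 and 722 in the heated libraries there, and 526 and 543 against 986 and 645 at Pigeon Point. At Aliso Beach it had 325 and 298 against 658 and 632, and at La Jolla 440 and 312 against 1148 and 656. Every heated library was above every control, as in 1.17% of all tested contigs over 16 libraries. The log2 difference was 0.90 ± 0.15 (SE, limma adjusted p = 0.0053), 0.77 ± 0.10 in the 12 libraries, and 0.50 and 0.40 when each was scaled to total reads without SR_contig_83, and all 4 values passed.

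S7, needed for the maturation of the small subunit in human cells, had 78.3 and 89.3 in the Slide Ranch controls against 154 and 105 under heat, and 46.5 and 60.1 against 73.5 and 124 at Pigeon Point. In the south it had 165 and 140 against 228 and 311 at Aliso Beach, and 113 and 124 against 246 and 229 at La Jolla. Heated libraries were above the controls at each shore, but northern heated values overlapped with southern controls. The log2 difference was 0.81 ± 0.16 (limma adjusted p = 0.014) over 16 libraries and 0.83 ± 0.15 in the 12. Over 16 libraries the call was lost when control 2 of Aliso Beach (0.78) or heat 2 of Aliso Beach (0.76) was left out, and scaled to total reads without SR_contig_83 the difference was 0.42 and did not pass.

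The unnumbered 40S contig (SR_contig_17969) went the other way. It had 514 and 450 in the Slide Ranch controls against 262 and 269 under heat, and 427 and 526 against 228 and 318 at Pigeon Point. At Aliso Beach it had 375 and 412 against 248 and 233, and at La Jolla 380 and 374 against 207 and 256. All 8 heated libraries were below all 8 controls, as in 1.02% of all tested contigs, and the log2 difference was -0.77 ± 0.12 (limma adjusted p = 0.0021) over 16 libraries and -0.71 ± 0.09 in the 12. Its name gives no protein number, so which ribosomal protein it encodes is not known here.

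**Figure D5:**
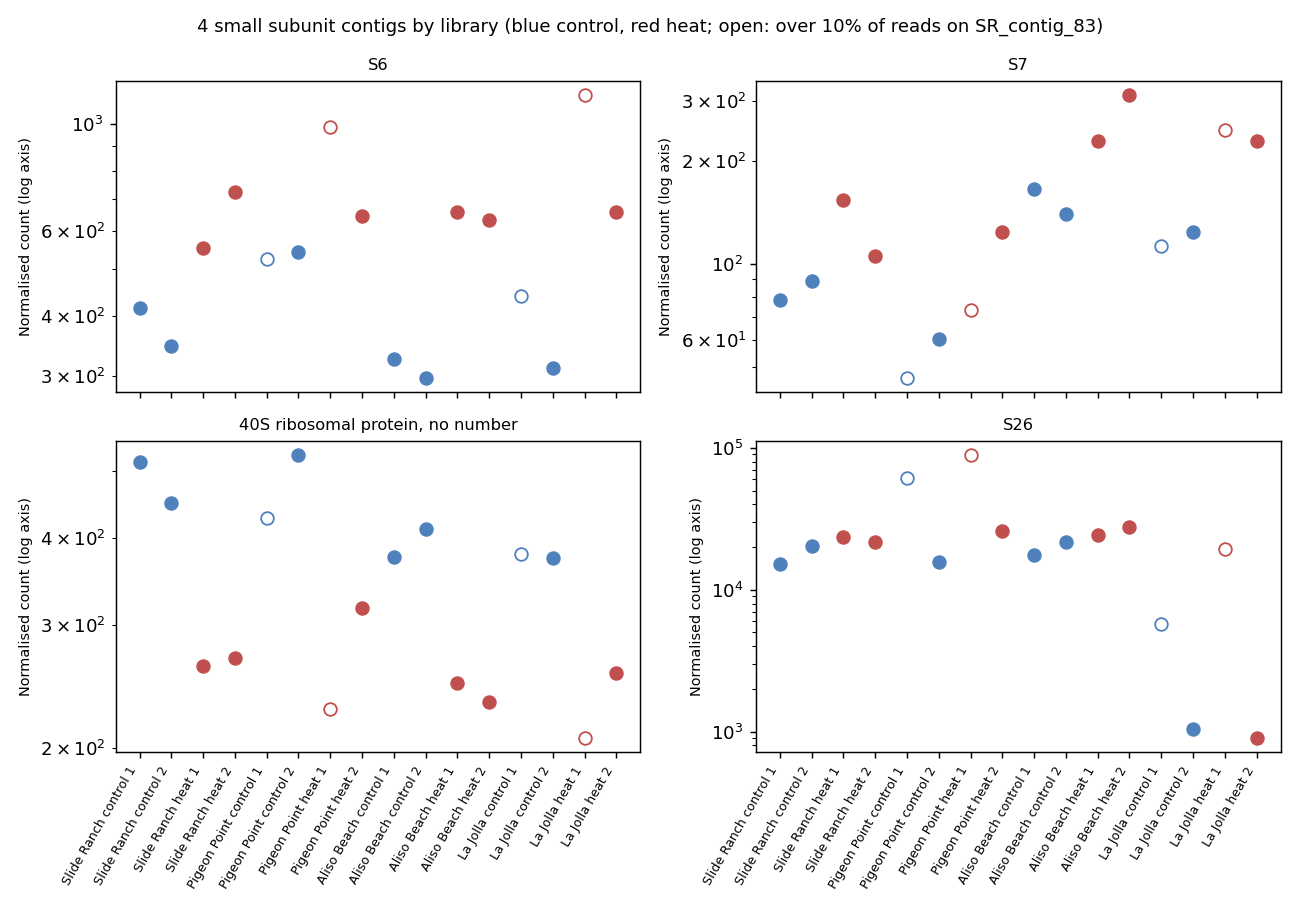
Normalised counts (y axes, logarithmic) of S6, S7, the unnumbered 40S contig and S26 in each of the 16 libraries (x axes), controls in blue and heated libraries in red, with open circles for the 4 libraries rich in SR_contig_83. S6 is higher and the unnumbered 40S contig lower in all heated libraries, and S26 is down to 1044 and 908 in the second libraries of La Jolla.

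Against the common movement of the list, few contigs stood out. After the median of the 46 was subtracted in each library, none of them passed for heat over 16 libraries in limma, edgeR or DESeq2. Of all tested contigs 1.02% were called in limma, 1.14% in edgeR and 2.28% in DESeq2. Of the 46, 1 had an unadjusted p under 0.05 in limma. The lowest were the unnumbered 40S contig (-1.23), S4 (-0.57) and S21 (-0.34), and the highest S6 (0.43), S7 (0.35) and L15 (0.26). In the 12 libraries the unnumbered 40S contig alone passed, at -1.18 ± 0.12, where 54.7% of all tested contigs were called lower and 1.68% higher relative to the ribosomal proteins. S6 at 0.31 ± 0.14 and S7 at 0.36 ± 0.15 did not pass (limma adjusted p = 0.081 and 0.065).

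Within the north, 1 contig passed over 16 libraries, the unnumbered 40S contig at -0.83 ± 0.16, where 0.734% of all tested contigs were called lower and 1.14% higher in limma. It lost the call without any 1 of the 4 Slide Ranch libraries, Pigeon Point control 2 or Pigeon Point heat 1, and under scaling to total reads without SR_contig_83. Among the 12 libraries 26 rose and 1 fell, against a background of 5.5% and 3.73%. The highest northern differences over 16 were those of L15 (0.87), S7 (0.72) and S12 (0.71), and the next lowest were S15 (-0.06) and L35a (0.17), none of which passed.

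Within the south, S6 passed over 16 libraries at 1.14 ± 0.22, where 0.962% of all tested contigs were called higher and 0.768% lower in limma. It lost the call without any 1 of the 4 Aliso Beach libraries, La Jolla control 2 or La Jolla heat 1, and under scaling to total reads without SR_contig_83. Among the 12 libraries 3 rose and 1 fell, against a background of 2.5% and 2.51%, among them S6 (1.06 ± 0.15) and S15 (0.74 ± 0.16). S7 (0.90), S23 (0.61), S21 (-0.16), S4 (-0.48) and the unnumbered 40S contig (-0.71) did not pass over 16.

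The difference between the regions in their response to heat was tested directly and gave no call. Over 16 libraries no contig passed in limma, neither among the 46 nor among all tested contigs (0%), none of the 46 had an unadjusted p under 0.05, and edgeR and DESeq2 called none. Among the 12 libraries 0 of the 46 passed, with 7 at an unadjusted p under 0.05, where 0.0138% of all tested contigs were called. The median of southern minus northern heat differences was -0.12 over 16 libraries and -0.18 in the 12, but its sign over 16 depends on single libraries. It was 0.20 without Pigeon Point control 2, Pigeon Point heat 1 or La Jolla heat 2, and 0.16 without La Jolla control 1. It was -0.47 without Pigeon Point control 1 or La Jolla heat 1, -0.43 without Pigeon Point heat 2 and -0.42 without La Jolla control 2. The extremes over 16 libraries were S15 (0.60 ± 1.16), S6 (0.48 ± 0.31) and L35a (0.30 ± 0.35) above 0, and S4 (-0.74 ± 0.94), the P2-like contig (-0.60 ± 0.52) and S21 (-0.58 ± 1.53) below.

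Among control snails, southern and northern libraries did not differ past the threshold in any of the 46 over 16 libraries, where 0.263% of all tested contigs were called in limma. Of the 46, 2 had an unadjusted p under 0.05, edgeR called none and DESeq2 1, against 1.51% of all tested contigs called higher there. The median difference was 0.23, but -0.05 without Pigeon Point control 2, -0.04 without La Jolla control 1, 0.54 without Pigeon Point control 1 and 0.49 without La Jolla control 2. Single contigs ranged widely, with S7 (1.002), L7a (0.58) and S12 (0.40) the highest and S26 (-1.76), S6 (-0.41) and the unnumbered 40S contig (-0.31) the lowest. Without the 4 libraries S7 passed as higher in the south (0.94 ± 0.22, limma adjusted p = 0.047) and S26 as lower (-1.89 ± 0.15), against a background of 2.67% and 1.5%. The S26 value rests on La Jolla control 2 (1044), since the Aliso Beach controls (17640 and 21538) lay near those of Slide Ranch (15198 and 20487). The S7 call is lost under scaling to total reads without SR_contig_83 (limma adjusted p = 0.055).

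Among heated snails S7 passed over 16 libraries, higher in the south by 1.18 ± 0.23 (limma adjusted p = 0.039), where 0.762% of all tested contigs were called higher and 0.402% lower. The 4 northern heated libraries had 73.5 to 154 and the 4 southern ones 228 to 311, without overlap. As in the other regional contrasts, the spread behind the test is that between libraries of a shore, not between shores. The call was kept when control 1, control 2 or heat 2 of Pigeon Point, or library 2 of either treatment at La Jolla, was left out. It was lost without any other library and under scaling to total reads without SR_contig_83. Without the 4 libraries S7 (0.97 ± 0.22) and S15 (0.61 ± 0.16) were higher in the south and S26 lower (-2.31 ± 0.15), against a background of 5.39% and 3.99%. This S26 value rests on La Jolla heat 2 (908), and the heated Aliso Beach libraries (24268 and 27882) were above those of Slide Ranch (23488 and 21680). L35a (0.53), the P2-like contig (-0.41) and S4 (-0.80) did not pass over 16.

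S26 counts were low at La Jolla. How well reads from each shore match the sequence of this contig is not given, so these are counts of matched reads. In the 12 libraries it had 15198 to 27882 normalised reads at Slide Ranch, Pigeon Point and Aliso Beach, and 1044 in La Jolla control 2 and 908 in La Jolla heat 2. In the libraries rich in SR_contig_83 it had 5723 in La Jolla control 1 and 19491 in La Jolla heat 1, against 61231 in Pigeon Point control 1 and 88463 in Pigeon Point heat 1. Each La Jolla library was thus below its Pigeon Point counterpart. La Jolla minus Aliso Beach, a contrast added because of these values, describes them on the log2 scale and is no independent test of S26. It was -4.53 in the 12 libraries, where La Jolla has 1 library per treatment and so gives no spread of its own, and -2.81 ± 0.86 over 16. Of the other 45 contigs none passed in this contrast in limma, in the 12 libraries, where 0.575% of all tested contigs were called lower and 0.658% higher, or over 16, where 0.36% were called.

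Pigeon Point minus Slide Ranch, added for comparison, gave none of the 46 a call in limma, in 16 libraries or in the 12, where 0.713% and 2.09% of all tested contigs were called. Of the 46, 3 had an unadjusted p under 0.05 over 16 libraries, and edgeR called none and DESeq2 1, against 1.82% of all tested contigs called higher there. At Slide Ranch and Aliso Beach the heated values of S26 lay above the controls, though its heat difference did not pass. It had 15198 and 20487 in the Slide Ranch controls and 23488 and 21680 under heat, and 17640 and 21538 against 24268 and 27882 at Aliso Beach.

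Other parts of the translation machinery were counted in the same way in the 12 libraries, with 10.6% of all tested contigs higher and 8.22% lower, and no list was tested against another. Mitochondrial ribosomal proteins, which build the separate ribosome of that organelle, had 5 of 32 contigs higher and none lower, with a median of 0.29. Initiation factors had 13 of 39 higher and none lower with a median of 0.18, and elongation factors, whose name pattern also takes a transcription elongation factor, had 4 of 11 higher and 1 lower with a median of 0.18. Ribosome assembly proteins had 6 of 31 higher with a median of 0.17, nascent chain and targeting factors 2 of 4, and RNA polymerase I subunits 0 of 3. The single S6 kinase contig had a log2 difference of 0.23 and did not pass. Scaled to total reads without SR_contig_83, the calls in the 12 libraries turned mostly lower, as did those of all tested contigs (2.11% higher and 44.6% lower), with 3 mitochondrial ribosomal proteins, 12 initiation factors, 4 elongation factors, 6 ribosome assembly proteins and 2 nascent chain and targeting factors lower, and 2 initiation factors and 1 targeting factor higher. Over 16 libraries with the deposited scaling 1 mitochondrial ribosomal protein, 2 initiation factors and 1 targeting factor were higher and 1 elongation factor lower.

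The initiation list takes in 3 kinases of eIF2. The contig named eukaryotic translation initiation factor 2-alpha kinase 3-like (SR_contig_4259_C3.1), the kinase that in mammals senses stress of the endoplasmic reticulum, had 153 at the lowest, 179 at the median and 247 at the highest in the 8 controls and 894, 1232 and 1533 in the 8 heated libraries. The groups were far apart, and the log2 difference was 2.78 ± 0.11 over 16 libraries and 2.83 in the 12. The kinase 1 contig (SR_contig_68990), known in mammals as the haem-regulated kinase, had 33.1 to 62.1 in the 6 controls and 66.7 to 112 in the 6 heated libraries of the 12, a log2 difference of 1.17 ± 0.17 (limma adjusted p = 0.0019). Over 16 libraries its difference was 0.89 and did not pass (limma adjusted p = 0.071). In the 12 libraries scaled to total reads without SR_contig_83 both kinases were still called, at 2.45 and 0.80. The kinase 4-like contig (SR_contig_17211) had -0.01 over 16 libraries and 0.11 in the 12, and did not pass in either (limma adjusted p = 0.99 and 0.50).

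The elongation factors gave values in both directions. Elongation factor 1 alpha (SR_contig_292_C3.1), which brings the charged transfer RNA to the ribosome, had 109731 to 135568 in the 6 controls and 160112 to 186450 in the 6 heated libraries, a log2 difference of 0.40 in the range of the ribosomal proteins. It did not pass over 16 libraries (0.42, limma adjusted p = 0.26), nor in the 12 scaled to total reads without SR_contig_83 (0.02, limma adjusted p = 0.84). An elongation factor 2-like contig (SR_contig_24303) fell from 534 to 1130 in the 8 controls to between 269 and 635 in the 8 heated libraries, with log2 differences of -0.96 over 16 and -0.78 in the 12. The eIF4G2 contig (SR_contig_1028) rose from between 6277 and 8093 to between 8667 and 13591, by 0.53 over 16 libraries and 0.44 in the 12, but not in the 12 scaled to total reads without SR_contig_83 (0.06, limma adjusted p = 0.57). These contigs were chosen after their values were seen.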

How the data were processed

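RNA sequencing reads of 16 whole-animal libraries, 2 per shore and treatment, form 1 table. Its values are a signal unit, read counts that the authors divided by a size factor per library, and CASAVA and DESeq appear, with no version, in the submitters' processing notes. How reads were assembled, mapped and filtered is not given in the sources used here. How reads of near-identical contigs were split is unknown, so contigs of 1 protein are uncertain in that respect. Of the deposited values 100% were whole multiples of the smallest step of the library within 0.01 read, which gave 17594009 to 26103215 reads per library. Counting error weighs most on the 7 contigs with low counts.

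The test was limma (version 3.58.1, under R 4.3.3) on log2(value + 1), with its variance estimate following the mean level, the 8 groups as terms and contigs of mean 10 or more. Fold differences on this scale understate changes of low contigs. P-values were adjusted by Benjamini-Hochberg over all 14444 contigs with a threshold of 0.05. The members, gene lists and tests were chosen with earlier results of these data known. Named contigs are those called over 16 libraries, the 10 largest rises and 5 largest falls under heat in the 12 libraries, the 3 highest and 3 lowest in each other contrast, the 3 most and 3 least variable, and those with textbook roles. Any other contig that is named was picked with its values in view. Alternatives were pseudocounts of 0.5 and 5, no filter, a mean of at least 50, TMM scaling, total reads without SR_contig_83, edgeR 4.0.16 and DESeq2 1.42.0 on the recovered reads, a replicate block, and leaving out libraries. Added after the data were seen were the contrasts between shores of 1 region and, for the 12 libraries, other scalings, edgeR and leaving out each Slide Ranch or Aliso Beach library, or Pigeon Point or La Jolla as a shore. A group left with 1 library borrows its spread from the other groups, which is an assumption. The fit was also run on simulated reads, drawn independently for each contig without a common shift in the 4 libraries rich in SR_contig_83. That run cannot show how such a shift affects the calls. Figures were drawn with matplotlib 3.10.9. Neither sequences nor coordinates of the contigs were used here.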

Additional observations from a re-analysis of the deposited data

Results flagged for a closer look

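In groups of 4 libraries (a region and a treatment), a library was marked where Dixon's test set it apart from the other 3. For a group taken alone, chance gives a mark about 1 time in 20. In 56 groups 36 values were marked, 35 of them in the 4 libraries rich in SR_contig_83. The groups reuse the same libraries for related values, and these 4 libraries were already known to be unlike the rest. The number of marks is therefore a description and cannot be set against chance. The share of reads in ribosomal protein contigs was 7.93% in Pigeon Point control 1. Their median log2 level was 15.86 in Pigeon Point heat 1, 15.50 in La Jolla control 1 and 15.96 in La Jolla heat 1.

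For most contigs the marked libraries were the first ones of Pigeon Point and of La Jolla, given here as normalised counts, control before heat and Pigeon Point before La Jolla. S15 had 161122, 78953, 99707 and 99603. S27 had 110991, 71029, 102355 and 93947. S20 had 39486, 45381, 68580 and 62971. S28 had 30587, 51783, 17026 and 36325. S15a had 29499.6, 30214, 35784 and 41268. L15 had 38856, 87116, 33069 and 103796. L29 had 29187, 29560, 15491 and 33002. S26 was marked in the first 2 of these libraries, with 61231 and 88463. S6 was marked in La Jolla heat 1 with 1148. The unnumbered 40S contig was marked in Aliso Beach control 2 with 412.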

How the results depend on the processing

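Counts here are of the 46 contigs called, with the share of all tested contigs called in brackets. No such share is given where 1 library or 1 shore was left out. In the 12 libraries, leaving out Pigeon Point also lowered the number of all tested contigs called. For heat over the 4 shores the 3 calls (4.24%) became 7 with DESeq2 (9.09%), 36 with a term for the 4 libraries rich in SR_contig_83 (24.4%), 37 without them (18.8%) and 38 without them in edgeR (18.8%), and 2 to 5 with 1 library left out, 5 being without La Jolla heat 2. In the 12 libraries the 37 calls became 4 under scaling to total reads without SR_contig_83 (46.7%), with a median of 0.029, 22 without Pigeon Point, and 28 to 39 with 1 library left out. For heat in the north, the 1 call (1.87%) became 0 under that scaling (2.71%), 26 with the term (10.2%), 27 without the 4 (9.24%), 3 without them under that scaling (34.8%), 30 without them in edgeR (9.51%) and 0 to 1 with 1 library left out. For heat in the south, the 1 call (1.73%) became 2 with no filter (1.72%) or a mean of at least 50 (1.85%), 0 under that scaling (1.77%), 3 with DESeq2 (3.52%), 8 with the term (8.92%), 4 without the 4 (5.01%), 2 without them under that scaling (18.8%), 4 without them in edgeR (5.26%) and 0 to 2 with 1 library left out.

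Between controls of the regions, 0 calls (0.263%) became 1 with DESeq2 (2.35%), 3 with the term (5.43%), 2 without the 4 (4.17%), and 1 (3.84%) and 3 (4.4%) without them under that scaling and in edgeR. Between heated snails, 1 call (1.16%) became 0 under that scaling (0.201%), 3 with the term (14%), 3 without the 4 under each scaling and in edgeR (9.28% to 9.51%), and 0 to 2 with 1 library left out. DESeq2 gave 1 call for Pigeon Point minus Slide Ranch (2.66%). La Jolla minus Aliso Beach went from 0 (0.36%) to 1 with DESeq2 (2.35%), with the term (1.37%), and without the 4 under each scaling and in edgeR (1.23% to 1.45%), and was 0 to 1 with 1 library left out. Relative to the list median, 0 (1.02%) became 4 with the term (60.8%), 1 without the 4 under both scalings (56.4% and 55.9%) and 2 in edgeR (56.1%).

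The replicate numbers were not taken to pair the samples, because the deviations of control and heated libraries correlated by -0.06 at one shore (Slide Ranch), and by 0.69 (Pigeon Point), 0.10 (Aliso Beach) and 0.64 (La Jolla) elsewhere. At Pigeon Point and La Jolla both libraries numbered 1 are those rich in SR_contig_83. With a replicate block the calls were 35 for heat (21.4% of all tested contigs), 21 in the north (7.75%), 6 in the south (6.09%), 3 between controls (4.64%), 3 between heated snails (11.6%), 27 and 31 between shores (21.5% and 19.8%) and 3 relative to the median (58.3%).

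Under scaling to total reads without SR_contig_83, the heat difference over 16 libraries reversed for P2 (-0.024), S15 (-0.15), S20 (-0.029) and S27 (-0.10). S15 also reversed in edgeR (-0.022) and without Pigeon Point control 2 (-0.23), Pigeon Point heat 1 (-0.018) or La Jolla control 2 (-0.09), and S27 without Pigeon Point control 2 (-0.15) or La Jolla control 2 (-0.07). With 1 library left out, S15 ranged from -0.23 to 0.71 and S27 from -0.15 to 0.73. Of the alternatives for 17 results on single contigs, 409 left the call as it was, 45 gave a call, 29 lost one and 10 reversed the direction. The cause was not tested. With 2 libraries a group, the median log2 level of the 46 contigs had an SD between libraries of a group of 0.84 over 16 libraries, and of 0.10 at Slide Ranch and Aliso Beach, which limits what can be called over 16.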
